A study of Homo sapiens with 6 samples.

Results

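Translation initiation factors other than eIF2 and eIF2B were followed in MDA-MB-231 cells after knockdown of BYSL. The members were all protein-coding genes of the deposited table whose symbol begins with EIF and a digit of 1 to 6, with the eIF2 subunit genes (EIF2S) and the eIF2B subunit genes (EIF2B) left out. There were 45 such genes among the 29538 genes of the table, and 44 of them had enough counts to be tested. The gene left out of the test was EIF4EBP3, which had 2, 0 and 0 counts in siBYSL libraries 1 to 3 and 1, 1 and 0 counts in siNC libraries 1 to 3.

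Both groups were cultures of MDA-MB-231, an established line of human triple-negative breast cancer cells with a mesenchymal character. The siBYSL group, 3 cultures, received an siRNA against BYSL, which encodes bystin, a factor of late maturation of the small ribosomal subunit. The siNC group, 3 cultures, received a negative-control siRNA. Every culture was given 160 pmol of siRNA per well with 4 µL of Lipofectamine RNAiMAX, and RNA was taken at 48 h for strand-specific poly(A) RNA-seq. A single siRNA against BYSL and a single cell line were used, so effects of BYSL loss and of this siRNA cannot be told apart. The labels call the cultures independent biological replicates.

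Library totals were 27754883 to 32088817 counts for siBYSL and 28606048 to 30476744 counts for siNC. BYSL itself had 15.9, 15.7 and 17.4 CPM (counts scaled to library size, with TMM factors) in siBYSL 1 to 3, against 104.1, 94.5 and 101.3 CPM in siNC 1 to 3, so each library matched its label. Of markers taken as high in the line, VIM ranged from 2080 to 2450 CPM and ZEB1 from 36.4 to 45.7 CPM. Of those taken as low, ESR1 did not exceed 0.0908 CPM and PGR 0.381 CPM in any library. Others taken as low were present: ERBB2 at 50.1 to 64.1 CPM, EPCAM at 13.8 to 20.9 CPM and CDH1 at 4.37 to 10.0 CPM. Library siBYSL 3 stood apart from siBYSL 1 and 2. Values without it are given where it turned a member's call, and for some other named members whose fold change it moved.

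Initiation is the step at which the small ribosomal subunit, loaded with initiator tRNA, is brought to an mRNA, finds the start codon and is joined by the large subunit. eIF1, eIF1A and eIF5 control start-codon choice, eIF3 is the scaffold on the small subunit, and eIF4F recognizes the 5′ cap and unwinds the leader. Regulators include the eIF4E-binding proteins, which block the cap-binding subunit, and the eIF2α kinases, which lower initiation under stress. Tumour cells often depend on this machinery for growth, and bystin acts upstream of it, in the making of the small subunit itself.

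The siRNA and its possible partners among these genes are shown first, because some of the largest falls were in transcripts that can pair with the seed of the guide strand. The seed, bases 2 to 8 of the strand that enters Argonaute, is in capitals in each siRNA strand below, written 5′ to 3′ without the 3′ overhang.
Guide (antisense) strand: uAUUCAGCaacgucaucuc
Passenger (sense) strand: gAGAUGACguugcugaaua

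The longest annotated 3′ UTR (GENCODE 29, GRCh38) of 5 of the 44 tested members (11.4%) held the heptamer that pairs with the guide seed, against 11.9% of all tested genes with a 3′ UTR. The sites are given below as the sense strand of the transcript, 5′ to 3′, with the heptamer in capitals.
EIF2AK1, site 1, chr7:6023844-6023872, minus strand: cgtatgattttGCTGAATtttaaataaaa
EIF2AK1, site 2, chr7:6023311-6023339, minus strand: atcgtctggatGCTGAATttcatctgcgt
EIF1AX, chrX:20128124-20128152, minus strand: ctgataataatGCTGAATtatcttaagtg
EIF1AD, chr11:65998317-65998345, minus strand: tgggtgggtggGCTGAATggggaggaaat
EIF4E, site 1, chr4:98879691-98879719, minus strand: aaaacttggttGCTGAATtgagttgtttc
EIF4E, site 2, chr4:98878753-98878781, minus strand: taataaattacGCTGAATcacttttggca
EIF4A2, chr3:186789297-186789325, plus strand: tgctcgctgttGCTGAATaggcgatcaca

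Only the EIF4A2 site was followed by an A, the base that extends the match opposite position 1 of a guide. EIF2AK1 and EIF1AX, with the lowest and third-lowest fold change of the 44 genes, carried a heptamer, as did EIF1AD, which also fell. EIF4E and EIF4A2 carried heptamers and were not called. The log2 fold changes were -1.01 for EIF2AK1, -0.67 for EIF1AX, -0.32 for EIF1AD, -0.18 for EIF4E and -0.07 for EIF4A2. The median over the 39 members without a heptamer was -0.13. Over all tested genes with a 3′ UTR, the median was -0.10 with a heptamer and 0.01 without. Of the lower members, 3 held a heptamer and 15 did not, among them EIF4EBP1 (-0.69), EIF6 (-0.48) and EIF3J (-0.47). Among all lower genes with a 3′ UTR, 19.1% held one. The part of seed pairing in the lower counts of these members was not tested.

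**Figure D1:**
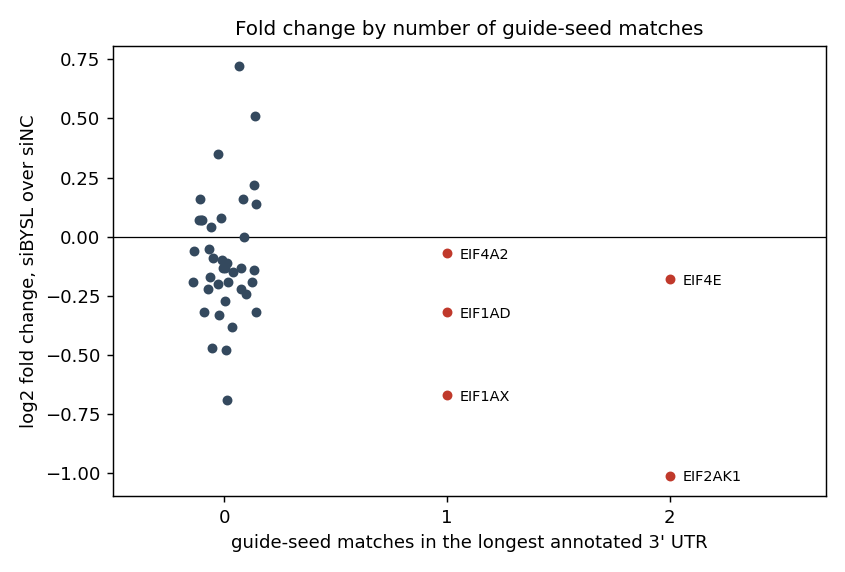
Each point is 1 of the 44 tested genes; the x axis is the number of guide-seed heptamers in its longest annotated 3′ UTR and the y axis its log2 fold change, siBYSL over siNC. Of the 44 genes, 32 lie below 0. They include all 5 genes with a heptamer, from EIF4A2 at -0.07 to EIF2AK1 at -1.01. Genes without one extend from -0.69 to 0.72.

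Across the 44 tested genes, 18 were lower and 4 were higher in siBYSL at an adjusted p under 0.05 (edgeR quasi-likelihood test, adjusted over 16412 genes), and 22 were not called. Over all genes tested, 18.4% were lower and 18.5% were higher, so 36.9% were called in either direction. The members' median log2 fold change was -0.138, against 0.007 over all genes tested. In single libraries, the median of the members against the siNC mean was -0.119, -0.124 and -0.162 in siBYSL 1, 2 and 3, and between -0.002 and 0.003 in the siNC libraries. The groups did not overlap for 30 of the 44 genes, against 49.6% of all genes tested. Most differences were small: 30 members had a log2 fold change of under 0.25 in size, and 5 exceeded 0.5. Of all 16412 genes tested, 9181 were under 0.25 in size and 2892 exceeded 0.5. In bulk RNA, fewer cells expressing a gene and less of its RNA per cell cannot be told apart.

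The numbers called in each direction were sensitive to scaling and to single libraries. With library totals in place of TMM factors, 10 members were lower and 5 higher, and all genes gave 1989 lower and 4106 higher in place of 3027 and 3032. Without siBYSL 3, 22 members were lower and 8 higher, and all genes gave 4075 and 3929. Without siBYSL 2 the members gave 11 and 3, and all genes 2204 and 2265. Without siNC 3 the members also gave 11 and 3, and all genes 2105 and 2121. Of the called members, 18.2% were higher in the main fit and 33.3% with library totals. That share was 26.7% without siBYSL 3 and 21.4% without siBYSL 2 or without siNC 3.

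**Figure D2:**
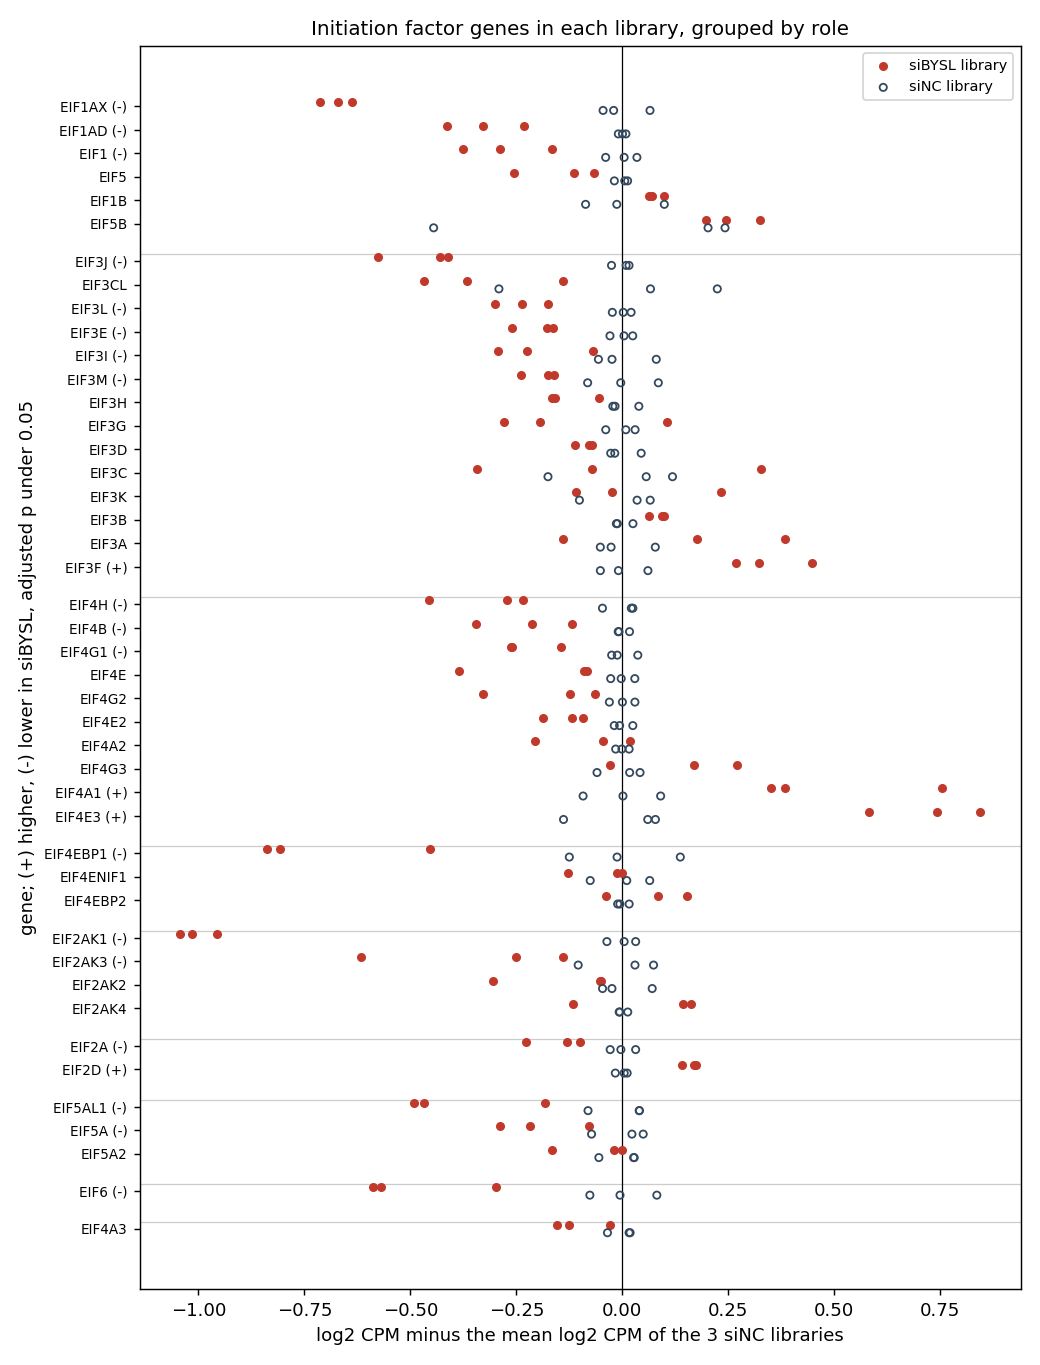
Each row is a tested gene, grouped by role, and the x axis gives log2 CPM in each library minus the mean log2 CPM of the 3 siNC libraries. Filled points are siBYSL libraries and open points siNC libraries; most filled points lie left of 0, EIF2AK1 farthest, while EIF4E3, EIF4A1 and EIF3F lie to the right.

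In the group of start-codon selection and subunit joining, 3 of 6 tested genes fell and 0 rose. EIF1AD, placed in this group by its symbol, is among those that fell. Over all genes tested, 18.4% fell and 18.5% rose, and no role group was tested as a set. EIF1AX (chromosome X, 20124518 to 20141844, minus strand), the X-linked gene for eIF1A, which keeps the scanning ribosome open and ready to read the start codon, had 99.0, 96.8 and 94.0 CPM in siBYSL 1 to 3, against 161.1, 149.2 and 151.8 CPM in siNC 1 to 3. The libraries of each group lay close together and far from the other group. Its log2 fold change was -0.67 (SE 0.052, adjusted p = 6.73e-06), a level of 62.7% of siNC. EIF1AD, an eIF1A-like protein found on late pre-40S particles, had 41.0, 38.7 and 43.9 CPM in siBYSL, against 51.2, 51.5 and 51.8 CPM in siNC. It fell by 0.32 on the log2 scale (SE 0.061, adjusted p = 0.00195), with no overlap between the groups.

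EIF1, which opposes initiation at wrong codons, had 636.9, 677.2 and 737.2 CPM in siBYSL 1 to 3, against 847.0, 804.8 and 829.5 CPM in siNC. The siBYSL libraries were all lower, siBYSL 3 the least so, and the log2 fold change was -0.27 (SE 0.062, adjusted p = 0.00569). Its paralog EIF1B was not called (log2 fold change 0.07, SE 0.061, adjusted p = 0.363). The log2 ratio of EIF1 to EIF1B counts, which does not depend on library scaling, averaged 3.67 ± 0.12 in siBYSL and 4.03 ± 0.082 in siNC (SD, n = 3 each; two-sided exact permutation test p = 0.1, the smallest that 3 against 3 allows). EIF5, the GTPase-activating protein for eIF2, stood at -0.14 (adjusted p = 0.0715). It was at -0.09 without siBYSL 3 (adjusted p = 0.0573) and was called without siBYSL 1 (-0.18, adjusted p = 0.0309) and with no filter (-0.16, adjusted p = 0.0491).

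EIF5B, the GTPase that joins the large subunit to the small one, was not called, and a single library set its spread; it is described because of that library, after its values were seen. It had 403.6, 417.3 and 441.1 CPM in siBYSL 1 to 3, against 258.6, 405.1 and 416.5 CPM in siNC 1 to 3. Library siNC 1 alone was low, and the other siNC libraries lay within the siBYSL range. With all libraries the log2 fold change was 0.22 (SE 0.141, adjusted p = 0.241), and without siNC 1 it was 0.03 (SE 0.068, adjusted p = 0.761). EIF5B in siNC 1 lay 0.64 on the log2 scale below the lowest of the other 5 libraries. Of 2051 genes with a mean of 100 CPM or more, EIF5B was the only gene that siNC 1 placed so far below every other library, and no such gene was found in any of the other 5 libraries.

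The 14 eIF3 genes, which encode the scaffold of the small-subunit complex, held 5 falls and 1 rise. Over all genes tested, 18.4% fell and 18.5% rose. The summed level of the eIF3 genes depended on the scaling. Scaled like CPM but on plain library totals, the sums were 3036, 3050 and 3080 in siBYSL 1 to 3, against 3098, 3015 and 3036 in siNC 1 to 3, and the groups overlapped (two-sided exact permutation test p = 0.9). As CPM with TMM factors, an alternative chosen after the data were seen, they were 2921, 2961 and 3049 in siBYSL, against 3214, 3077 and 3117 in siNC, with no overlap (p = 0.1, the smallest that this exact test allows). The median eIF3 gene, on TMM factors, lay at -0.202, -0.167 and -0.074 in siBYSL 1, 2 and 3 against the siNC mean on the log2 scale, and between -0.023 and 0.042 in siNC libraries. EIF3J, the loosely attached subunit that binds near the decoding centre, had 78.0, 79.1 and 70.5 CPM in siBYSL, against 103.3, 106.3 and 105.8 CPM in siNC. It was the lowest eIF3 gene by fold change among those that passed the test (-0.47, SE 0.057, adjusted p = 1.14e-04). The 3′ UTR of EIF3J held no guide-seed heptamer but 1 heptamer of the passenger seed. EIF2AK4 (0.07) and EIF5 (-0.14) held 1 passenger-seed heptamer each and were not called. The part of this pairing in the fall of EIF3J was not tested.

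EIF3L, a subunit of the outer part of the complex, had 187.9, 196.4 and 205.1 CPM in siBYSL, against 234.8, 227.7 and 231.8 CPM in siNC, and fell by 0.24 on the log2 scale (SE 0.051, adjusted p = 0.0043). EIF3E, EIF3I and EIF3M fell by 0.20, 0.19 and 0.19 (adjusted p = 0.0113, 0.0411 and 0.0207). With library totals these 3 were not called (adjusted p = 0.0873 for EIF3E, 0.17 for EIF3I and 0.129 for EIF3M), and each lost its call under further alternatives, EIF3I under 9 of 17. EIF3J and EIF3L passed under every alternative tried.

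EIF3F (chromosome 11, 7970251 to 8001862, plus strand), a subunit with an MPN fold, went the other way. It had 208.4, 216.5 and 236.0 CPM in siBYSL 1 to 3, against 180.4, 166.9 and 171.9 CPM in siNC 1 to 3. All siBYSL libraries lay above all siNC libraries, and the log2 fold change was 0.35 (SE 0.059, adjusted p = 0.00101). It was called under every alternative tried. EIF3A, the largest subunit, had 365.0, 316.5 and 254.2 CPM in siBYSL, against 270.0, 295.4 and 274.8 CPM in siNC. Library siBYSL 3 lay below all siNC libraries while the other siBYSL libraries lay above them, and the gene was not called (0.16, SE 0.105, adjusted p = 0.277). Without siBYSL 3 it was higher by 0.28 (SE 0.053, adjusted p = 2.93e-04).

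Levels of the eIF3 genes relative to each other were read per length, as TPM over summed exon length in GENCODE 29. That length counts the exons of all annotated transcripts, 1725 bases for EIF3I and 9431 bases for EIF3F, so the order depends on it. By mean CPM, EIF3E was highest (440.0 in siBYSL, 505.2 in siNC). Besides EIF3C and EIF3CL, EIF3J was lowest by mean CPM (75.9 in siBYSL, 105.1 in siNC). The TPM values follow. EIF3I, a small WD-repeat subunit, was highest, at 482.8 ± 18.2 TPM in siBYSL and 517.4 ± 18.9 TPM in siNC (SD, n = 3 each). The other subunits down to EIF3F, at 64.1 ± 1.41 TPM in siBYSL and 47.2 ± 1.25 TPM in siNC, spanned less than an order of magnitude. EIF3C stood far below them, at 4.56 ± 1.07 TPM in siBYSL and 4.29 ± 0.45 TPM in siNC. EIF3CL, a near-identical copy of EIF3C on chromosome 16, stood at 1.86 ± 0.28 TPM in siBYSL and 2.18 ± 0.39 TPM in siNC. Reads that fit either copy may have been dropped by the submitters' counting, which is not given in the sources used here, so the values of EIF3C and EIF3CL are uncertain. Neither was called (adjusted p = 0.999 and 0.165), and their summed counts were not either (-0.06, adjusted p = 0.763).

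**Figure D3:**
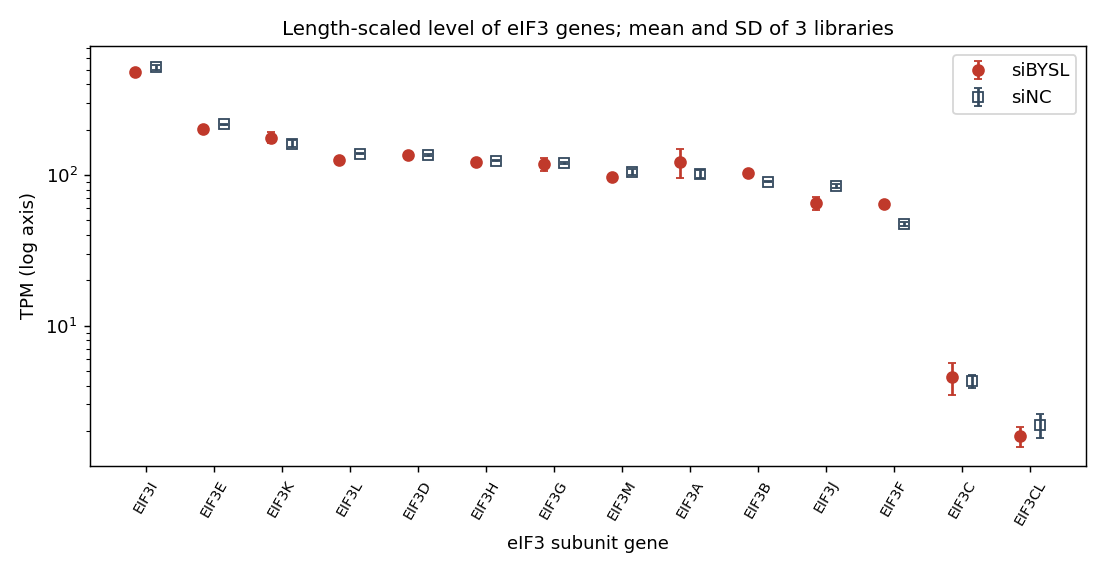
Mean TPM (log axis) of each eIF3 gene in siBYSL (filled circles) and siNC (open squares), with SD over 3 libraries. On this measure, whose order depends on the summed exon length, EIF3I is highest and EIF3F is the lowest of the genes without a near-identical copy. EIF3C and EIF3CL lie below 5 TPM in both groups.

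Of the 10 genes for cap binding and unwinding, 3 fell and 2 rose, against 18.4% and 18.5% over all genes tested. EIF4H, which assists the eIF4A helicase, had 365.2, 355.8 and 313.0 CPM in siBYSL 1 to 3, against 415.7, 435.8 and 436.9 CPM in siNC 1 to 3. The groups did not overlap, and the log2 fold change was -0.32 (SE 0.064, adjusted p = 0.00294). EIF4G1, the scaffold of eIF4F, had 442.4, 408.5 and 407.5 CPM in siBYSL, against 485.2, 501.8 and 480.8 CPM in siNC (log2 fold change -0.22, SE 0.054, adjusted p = 0.00828). EIF4B, the other helper of the helicase, fell by 0.22 as well (adjusted p = 0.0142). The calls of EIF4G1 and EIF4B were lost with library totals (adjusted p = 0.0811 and 0.118) and without siBYSL 2 (adjusted p = 0.0535 and 0.0513), and that of EIF4B also without siNC 2 or siNC 3 (adjusted p = 0.0569 and 0.0567).

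EIF4E, the cap-binding subunit itself, had 76.0, 75.7 and 61.7 CPM in siBYSL, against 79.1, 80.5 and 82.3 CPM in siNC. Every siBYSL library lay below every siNC library, siBYSL 3 by the most, but the gene was not called (-0.18, SE 0.077, adjusted p = 0.0898). It stood at -0.09 without siBYSL 3 (adjusted p = 0.0985), and it was called without siBYSL 1 (-0.23, adjusted p = 0.0429) and with no filter on low counts (-0.19, adjusted p = 0.0171). EIF4E2, a cap-binding paralog that acts in repression, stood at -0.13 (adjusted p = 0.0627), EIF4G2, a scaffold relative that lacks the eIF4E site, at -0.17 (adjusted p = 0.0781) and EIF4G3 at 0.14 (adjusted p = 0.157). EIF4G2 was at -0.09 without siBYSL 3 (adjusted p = 0.0583) and was called without siBYSL 1 (-0.22, adjusted p = 0.0252) and with no filter (-0.18, adjusted p = 0.0136).

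EIF4E3 (chromosome 3, 71675416 to 71754773, minus strand), the most divergent cap-binding paralog, had the largest rise of the 44 genes. It had 12.0, 11.1 and 9.97 CPM in siBYSL 1 to 3, against 6.05, 7.03 and 6.94 CPM in siNC 1 to 3. All siBYSL libraries were above all siNC libraries, and the log2 fold change was 0.72 (SE 0.103, adjusted p = 3.42e-04), or 1.65-fold. It was also among the members of lowest count, with 169 to 206 counts per siNC library.

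EIF4A1, the main eIF4A helicase gene in dividing cells, had 99.6, 102.0 and 131.9 CPM in siBYSL, against 83.2, 73.3 and 78.2 CPM in siNC. Its log2 fold change was 0.51 (SE 0.099, adjusted p = 0.00238), with siBYSL 3 the highest library. Without siBYSL 3 it was 0.37 (SE 0.048, adjusted p = 2.28e-06). The annotated read-through gene SENP3-EIF4A1 overlaps 29.8% of the exon bases of EIF4A1 on the same strand, and a further same-strand transcript, AC016876.2, with 2555 to 2959 counts per library, overlaps 41.1%. How reads were divided among these rows is not known. Of the counts of both rows, the EIF4A1 row held 8.47%, 8.6% and 10.4% in siBYSL and 7.85%, 7.32% and 7.72% in siNC. SENP3-EIF4A1 had 1098 ± 32.1 CPM in siBYSL and 946.3 ± 26.3 CPM in siNC (SD, n = 3 each), while SENP3 itself had 75.1 ± 0.36 CPM in siBYSL and 83.8 ± 2.3 CPM in siNC. With both EIF4A1 rows summed, an alternative chosen after the data were seen, the rise was 0.24 (SE 0.055, adjusted p = 0.00631), so its direction held and its size was less than that of the EIF4A1 row alone.

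The paralog EIF4A2 was not called (-0.07, SE 0.062, adjusted p = 0.372). The log2 ratio of EIF4A1 to EIF4A2 counts was -1.88, -1.79 and -1.25 in siBYSL 1 to 3, against -2.11, -2.31 and -2.23 in siNC 1 to 3. The groups did not overlap, and the difference of 0.57 gave the smallest p that the design allows (two-sided exact permutation test, p = 0.1; 0.16 after Benjamini-Hochberg adjustment over 8 pairs of related genes). With the SENP3-EIF4A1 row added to EIF4A1, the ratio was 1.68, 1.75 and 2.01 in siBYSL, against 1.56, 1.46 and 1.47 in siNC, a smaller difference of 0.32 (exact permutation p = 0.1). EIF4A3, the helicase of the exon junction complex on spliced mRNA, is a relative outside the cap complex and was not called (-0.10, adjusted p = 0.146).

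Of the regulators that bind eIF4E, EIF4EBP1 fell. It encodes 4E-BP1, which competes with eIF4G for eIF4E until mTORC1 phosphorylates it. It had 46.2, 47.2 and 60.3 CPM in siBYSL 1 to 3, against 90.8, 75.7 and 81.9 CPM in siNC 1 to 3. The groups did not overlap, with siBYSL 3 nearest to siNC, and the log2 fold change was -0.69 (SE 0.101, adjusted p = 3.94e-04), a level of 61.8% of siNC. No guide-seed heptamer was found in its 3′ UTR, and it was called under every alternative tried. EIF4EBP2 was not called (0.07, SE 0.056, adjusted p = 0.365), nor was EIF4ENIF1, the eIF4E transporter of P-bodies (-0.05, SE 0.075, adjusted p = 0.672). The log2 ratio of EIF4EBP1 to EIF4EBP2 averaged -1.51 ± 0.31 in siBYSL and -0.74 ± 0.12 in siNC (SD, n = 3 each; two-sided exact permutation test p = 0.1, the smallest possible; 0.16 adjusted over 8 pairs).

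The eIF2α kinases gave the largest change of the 44 genes. EIF2AK1 (chromosome 7, 6022244 to 6059230, minus strand), which encodes HRI, the kinase that senses low heme and mitochondrial stress, had 75.6, 72.7 and 71.3 CPM in siBYSL 1 to 3, against 143.2, 150.1 and 147.3 CPM in siNC 1 to 3. The libraries within each group were close, and the level in siBYSL was 49.8% of that in siNC (log2 fold change -1.01, SE 0.05, adjusted p = 6.14e-07). It is the member with 2 guide-seed heptamers shown above. EIF2AK3, which encodes PERK, the kinase of endoplasmic reticulum stress, had 18.8, 17.3 and 13.5 CPM in siBYSL, against 19.2, 21.1 and 21.7 CPM in siNC.

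Library siBYSL 3 was the lowest for EIF2AK3, and siBYSL 1 lay just below the lowest siNC library. It passed with all libraries (-0.32, SE 0.11, adjusted p = 0.0406), and its fold change was -0.20 without siBYSL 3 (adjusted p = 0.0301). The call was lost with library totals (adjusted p = 0.128), with upper-quartile factors and when siBYSL 2 or any siNC library was left out, with adjusted p between 0.0538 and 0.144. EIF2AK4, which encodes GCN2, the sensor of uncharged tRNA, had 76.8, 75.7 and 63.3 CPM in siBYSL, against 68.3, 69.2 and 68.3 CPM in siNC. It was high in siBYSL 1 and 2 and low in siBYSL 3, and was not called (0.07, SE 0.072, adjusted p = 0.487; 0.15 and adjusted p = 0.00562 without siBYSL 3). EIF2AK2, which encodes PKR, the kinase of double-stranded RNA, stood at -0.13 (adjusted p = 0.179), and at -0.05 without siBYSL 3 (adjusted p = 0.352). Summed over the kinases, counts scaled on plain library totals were 247.1 ± 23.6 in siBYSL and 313.8 ± 10.1 in siNC (SD, n = 3 each; two-sided exact permutation test p = 0.1, the smallest possible; 0.25 after Benjamini-Hochberg adjustment over 10 sums), with no overlap between the groups. As CPM with TMM factors, the kinases summed to 240.5 ± 19.7 in siBYSL and 322.6 ± 7.84 in siNC (SD, n = 3 each). On that same scale, the other kinases without EIF2AK1 summed to 178.8, 176.5 and 146.7 CPM in siBYSL, against 172.5, 181.1 and 173.7 CPM in siNC. Those groups overlapped (exact permutation p = 0.8).

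The remaining members act in tRNA delivery, elongation and the large subunit. EIF2D, which can deliver tRNA to the ribosome without eIF2 and acts in ribosome recycling, had 57.6, 56.4 and 57.8 CPM in siBYSL, against 50.6, 51.6 and 51.4 CPM in siNC. The change was small but with no overlap between the groups (0.16, SE 0.051, adjusted p = 0.0297), and the call was lost under 8 of 17 alternatives. EIF2A, a separate tRNA-delivery factor, stood on the other side of 0 (-0.15, SE 0.054, adjusted p = 0.0473) and lost its call under 10 of 17.

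EIF5A, the hypusine-bearing factor that helps elongation past difficult peptide bonds, had 620.2, 651.3 and 718.0 CPM in siBYSL, against 784.0, 720.5 and 769.7 CPM in siNC. The siBYSL libraries were lower, siBYSL 3 only just below the lowest siNC library, and the log2 fold change of -0.19 (SE 0.065, adjusted p = 0.0386) lost its call under 8 of 17 alternatives, library totals among them (-0.12, adjusted p = 0.165). EIF5AL1, an intronless near-copy of EIF5A that can take up its reads, had 18.4, 18.7 and 22.9 CPM in siBYSL, against 26.7, 24.5 and 26.7 CPM in siNC (-0.38, SE 0.089, adjusted p = 0.00699). Its value is uncertain for that reason. EIF5A2 was not called (-0.06, adjusted p = 0.495).

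EIF6 (chromosome 20, 35278911 to 35284985, minus strand) encodes the factor that holds the large subunit apart from the small one until it is released in the cytoplasm. It had 119.3, 120.9 and 146.0 CPM in siBYSL 1 to 3, against 189.9, 170.2 and 178.8 CPM in siNC 1 to 3. All siBYSL libraries were lower, and the log2 fold change was -0.48 (SE 0.078, adjusted p = 7.8e-04), a level of 71.7% of siNC. A further annotated gene, ENSG00000261582.1, overlaps 17.4% of its exon bases on the same strand and fell alike (-0.52, SE 0.089, adjusted p = 0.00108); with the rows summed the change was -0.50 (adjusted p = 8.93e-04). EIF6 had no guide-seed heptamer, and was called under every alternative tried.

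**Figure D4:**
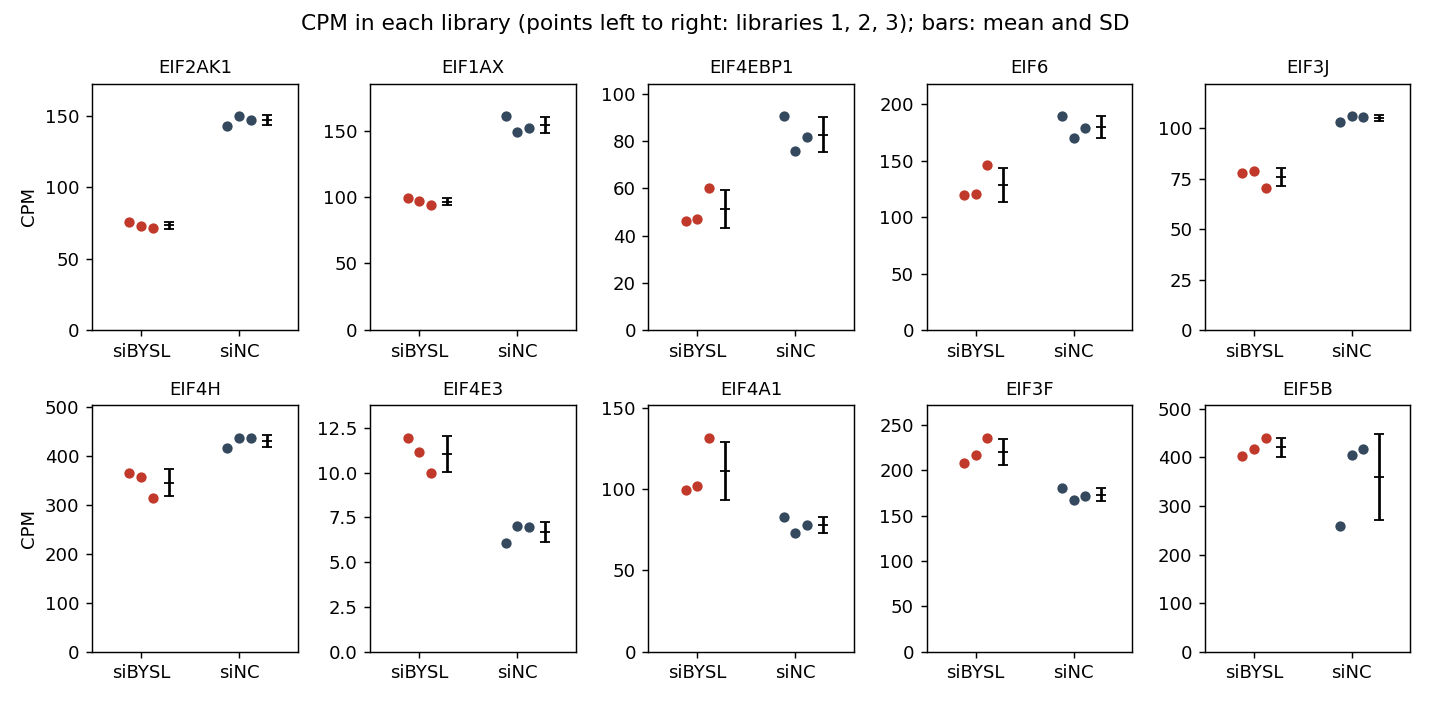
CPM (y axis, from 0) of 10 of the genes described in each library, siBYSL to the left of siNC, with the mean and SD of each group beside the points. EIF2AK1 and EIF1AX show tight groups far apart, siBYSL 3 lies nearest to siNC for EIF4EBP1 and EIF6, and the spread of EIF5B comes from the low library siNC 1.

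The libraries of the siBYSL group were not alike for these genes. Library siBYSL 3 was below both other siBYSL libraries for 21 of the 44 members and above both for 19. That count was not made over all genes or for the other siBYSL libraries. The deviations on the log2 scale ran from -0.42 for EIF3A and -0.41 for EIF2AK3 to 0.37 for EIF4EBP1 and 0.39 for EIF4A1. Longer genes tended to be lower in siBYSL 3 and shorter genes higher. The correlation of the deviation with log2 exon length was -0.57 over the 44 members and -0.33 over 16229 tested genes with a length, a description over genes that share the same libraries. The part of this length-related difference in the results above was not tested. A further 8 members passed when siBYSL 3 was left out: EIF3A, EIF4G3, EIF2AK4 and EIF4EBP2 were then higher by 0.28, 0.22, 0.15 and 0.12, and EIF3G, EIF3H, EIF4E2 and EIF4A3 were lower (-0.24, -0.16, -0.15 and -0.14).

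**Figure D5:**
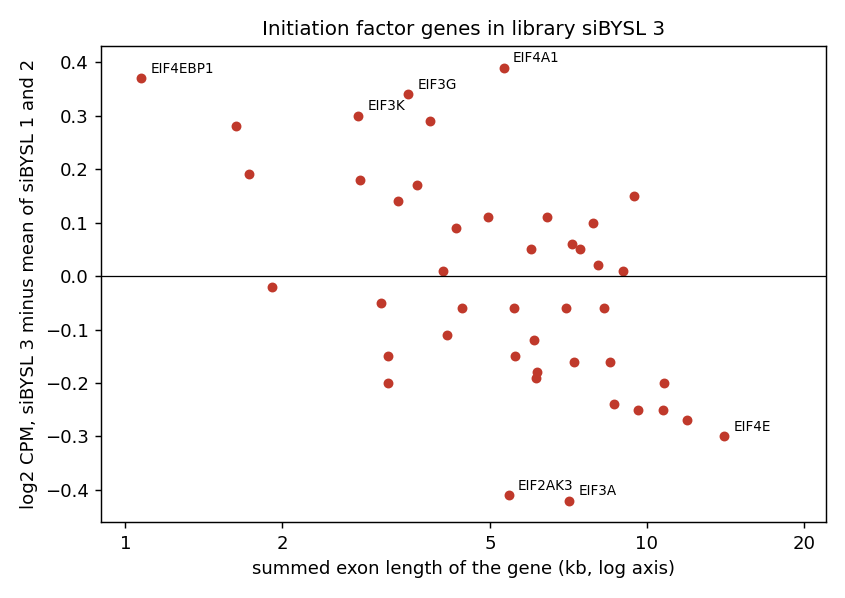
Each point is a tested gene; the x axis (log scale) is its summed exon length in kb and the y axis its log2 CPM in siBYSL 3 minus the mean of siBYSL 1 and 2. The points fall with length (correlation -0.57), with EIF4A1 and EIF4EBP1 highest and EIF3A and EIF2AK3 lowest.

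Genes of initiation that do not carry an EIF symbol were also examined as a list of 36 genes, all tested. Of these, 12 fell and 7 rose, with a median of -0.054. Over all genes tested, 18.4% fell and 18.5% rose, with a median of 0.007, and the list was not tested as a set. MKNK2, a kinase that docks on eIF4G and phosphorylates eIF4E, had 101.8, 95.7 and 97.3 CPM in siBYSL, against 54.1, 55.1 and 52.4 CPM in siNC (0.87, SE 0.053, adjusted p = 1.57e-06). The sister kinase MKNK1, named after its values were seen, fell by 0.38 (SE 0.057, adjusted p = 4.52e-04), with no overlap between the groups for either gene.

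MCTS1, which works with DENR to recycle small subunits and to restart them after short upstream reading frames, had 50.7, 54.3 and 62.6 CPM in siBYSL, against 97.5, 92.1 and 98.0 CPM in siNC (-0.78, SE 0.074, adjusted p = 2.73e-05). Its partner DENR, also named after its values were seen, rose by 0.32 (SE 0.051, adjusted p = 6.66e-04), so the subunits of this pair, which resembles eIF2D, moved in opposite directions. ZNF598, a ubiquitin ligase for collided ribosomes, fell by 0.66 (SE 0.073, adjusted p = 6.59e-05), and CTIF, which joins the nuclear cap-binding complex to eIF3, rose by 0.51 (SE 0.063, adjusted p = 1.37e-04). MCTS1 and ZNF598 carried a guide-seed heptamer; 4 of the 12 fallen genes and 0 of the 7 risen genes of this list did. Among all genes with a 3′ UTR, 19.1% of those that fell and 8.99% of those that rose held one.

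Of 16 factors of elongation and termination, 6 fell and 1 rose, with a median of -0.124, against 18.4% and 18.5% over all genes tested. PELO, which rescues stalled ribosomes, fell by 0.39 (SE 0.05, adjusted p = 1.65e-04), DPH2, an enzyme of the diphthamide of eEF2, by 0.30 (adjusted p = 0.00691) and EEF1A1, the carrier of aminoacyl-tRNA, by 0.18 (adjusted p = 0.0178). EEF2K, the kinase that inhibits eEF2, rose by 0.53 (SE 0.084, adjusted p = 6.44e-04). Among the 8 genes of eIF2 and eIF2B, 4 fell and 0 rose, beside the same shares over all genes. Neither list was tested as a set. EIF2S1, the subunit that the eIF2α kinases phosphorylate, fell by 1.49 on the log2 scale, more than any of the 44 genes, and its 3′ UTR held 1 guide-seed and 1 passenger-seed heptamer. EIF2B5, EIF2S2 and EIF2B2 fell by 0.29, 0.20 and 0.17 and held no guide-seed heptamer. EIF2B1 also held 1 guide-seed heptamer and was not called (-0.04, adjusted p = 0.606).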

How the data were processed

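Raw counts per gene of 6 libraries, 3 siBYSL and 3 siNC, were deposited by the authors as whole numbers. The submitters' processing notes list HISAT2, DESeq2 and GRCh38.p13 with no versions or order. How reads were counted, on which annotation release and after which filters was not given in the sources used here. Counts were filtered with filterByExpr, scaled with TMM factors and compared with the edgeR 4.0.16 quasi-likelihood F test (robust; R 4.3.3), with Benjamini-Hochberg adjustment over 16412 genes and a threshold of 0.05. SE is the absolute log2 fold change over the square root of F. Fold changes are siBYSL over siNC. Libraries held 27754883 to 32088817 counts, and replicates varied by a biological coefficient of 0.0649 (edgeR, shared by all genes). Precision differed between genes, from an SE of 0.047 for EIF3B to 0.141 for EIF5B, for example. Single values such as ratios and sums were compared by exact permutation over libraries. The fit was tried on simulated counts. Lengths, coordinates and 3′ UTRs came from GENCODE 29, matched by unversioned identifier for all 45 members; TPM used summed exon length.

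Alternatives tried were 3 other scalings (plain library totals, upper-quartile factors, DESeq2 size factors), filters of none or of 1 CPM reached in 3 libraries, limma-voom (limma 3.58.1), the Wald test of DESeq2 1.42.0, a replicate block, each library left out, mitochondrial transcripts left out and guide-seed genes left out. Summing of overlapping rows, and of role groups on TMM factors, was added after the data were seen. Genes given in every library were the 10 lower and all 4 higher members with the smallest adjusted p, and 9 chosen for their role, 3 of which are also among those 14; EIF5B was added after its values were seen. From each other list up to 4 genes of smallest p were named. Members and lists were chosen with earlier results of these data known.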

Additional observations from a re-analysis of the deposited data

How the results depend on the processing

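Of 22 called members, 13 were called under every alternative that gave them a value, of 17 tried, and no called member changed sign under any. The count of lower members was 10 with library totals, against 18; that scaling moved the median of all genes to 0.085, and the count of all lower genes was 1989. Leaving out 1 library at a time gave 11 to 22 lower and 3 to 8 higher members, 2105 to 4075 lower genes and 2121 to 3929 higher genes. Same-numbered libraries did not deviate together (correlations -0.129, 0.0596 and 0.0106), so the numbers were not taken as pairs. With a replicate block, 15 members were lower and 3 higher, against 18 and 4, and 2764 genes were lower and 2802 higher. With guide-seed genes left out, 16 of the remaining 39 members were lower and 4 higher, and 2593 genes were lower and 2670 higher. The 16 include EIF4E2 (-0.14), not called in the main fit, which passed only at the edge (edgeR adjusted p = 0.05 after rounding). In sums added after the data were seen, the siBYSL to siNC ratio of summed eIF3 counts was 0.949 on TMM factors, against 1.0 on library totals, and that of the eIF2α kinases was 0.952 without EIF2AK1 and 0.745 with it on TMM factors, against 0.787 with it on library totals. Depth limits EIF4EBP3, EIF3CL and EIF4E3 most, which have the lowest counts. With 3 cultures of 1 line in each group, p-values describe the spread between these cultures only.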

Other observations

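Rows with an EIF symbol that are not protein coding, which the report does not use, numbered 36, of which 7 had enough counts to be tested. EIF3J-DT, a noncoding RNA that starts beside EIF3J and runs the other way, was the only one called. It was higher in siBYSL, with 234, 229 and 199 counts in siBYSL 1 to 3 and 173, 126 and 161 counts in siNC 1 to 3 (log2 fold change 0.44, SE 0.13, edgeR adjusted p = 0.0204), while EIF3J itself fell by 0.47. EIF2AK3-DT, which lies in the same way beside EIF2AK3, had 21, 31 and 27 counts in siBYSL and 17, 12 and 17 counts in siNC, with no overlap between the groups. It was not called (0.69, SE 0.259, adjusted p = 0.0572), and EIF2AK3 itself fell by 0.32. Both were named after their values were seen.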
